A study of Oryza sativa with 36 samples.

Results

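Leaf RNA-seq of rice plants regenerated from calli labelled Callus+AM was compared with that of plants regenerated from calli labelled Callus. The comparison holds 4 libraries, replicates 1 and 2 of Callus+AM and replicates 1 and 2 of Callus, which were chosen by their names from the 18 RNA-seq libraries and 36 samples of the series. All plants were japonica rice of the variety TNG67, were grown to the tillering stage in a greenhouse in natural light, and had their leaves sampled. Both groups share regeneration from callus, and the labels separate them by the AM component alone, for which no source used here gives a full name. The other groups used here as a backdrop were Seedling, read as plants grown directly from seed, and the 6 groups PB, AMT+Hb, AMT+Ab, Ag, AgBi and AgTi, read as plants regenerated from calli after further combinations of transformation treatments. Each group had 2 libraries, stated to be biological replicates; whether each came from 1 plant, from 1 regenerated line or from a pool is not given in the sources used here, nor is the age in days or the RNA kit used for each library.

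Rice is usually transformed through callus, a mass of dividing cells grown in culture from a seed or an embryo, from which whole plants are regenerated with hormones. Plants regenerated in this way can differ from their seed-grown parents in DNA methylation and in gene expression, a phenomenon known as somaclonal variation. Such differences can vary from one regenerated plant to the next. In a bulk leaf sample, a change in the make-up of cell types and a change in RNA per cell cannot be told apart.

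The Callus libraries held 41582054 and 48498470 estimated counts and the Callus+AM libraries 33163868 and 32270242, so depth moved with the group. Levels are given as CPM, counts relative to the size of the library, after TMM scaling (trimmed mean of M values), and 26374 of the 55986 listed genes had enough counts to be tested. Only 1 identifier in the files could be paired with a gene name, so genes are given by their LOC_Os identifiers, at most 2 in each direction of a comparison, and no tissue marker of leaf could be checked. Chromosomes were read from the identifiers. Across the 26374 genes, the 2 Callus libraries had a Spearman rho of 0.975, whereas the 2 Callus+AM libraries had a rho of 0.912. Callus+AM replicate 1 was closer to both Callus libraries (rho 0.942 and 0.950) than to its own partner, and closest of all to replicate 2 of AgTi (0.985). Callus+AM replicate 2 was closest to the 2 libraries of AMT+Hb (0.949 each) and had a rho of 0.912 and 0.909 with the Callus libraries. These coefficients describe libraries that share a normalization and were not tested. Whether every library carries the label of its own group was not tested, and the Callus+AM values below rest on those labels. Because the Callus+AM libraries stood apart from each other, values are given for each library, and a fit without 1 library is given where it ended a call or moved a called value by more than 1.5 times.

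In the comparison of Callus+AM with Callus, 209 of the 26374 genes (0.792%) differed at an adjusted p below 0.05 in edgeR's quasi-likelihood test with Benjamini-Hochberg adjustment. Of these, 107 genes (0.406% of those tested) were higher in Callus+AM and 102 (0.387%) were lower. The higher genes had a median log2 fold change of 2.64 and the lower genes one of -1.95, beside a median of 0.06 over all genes tested. More than 4-fold changes were fitted for 68 of the higher and 48 of the lower genes. The higher genes were mostly of modest abundance, with a median log2 CPM over the 18 libraries of 2.96, and the lower genes were abundant ones, at 5.73, beside 3.22 for all genes tested. The spread was shared over all 9 groups, and the Callus+AM pair was the widest of them. In Callus+AM 6.52% of genes were over 4-fold apart between replicates, against 0.277% in AMT+Ab to 2.74% in Ag. The shared spread thus tends to lie below that of Callus+AM, and the p-values and standard errors from it may be too small. Fitted on the 4 libraries alone, edgeR called 0 genes, with 3186 at an unadjusted p below 0.05, against 5429 with all 18 libraries. That fit differs in its spread, in its residual degrees of freedom and in its scaling, and their shares were not tested. DESeq2 called 2746 genes (1770 higher and 976 lower), among them all 209.

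A group left with 1 library adds nothing to the shared spread. Every other group had a narrower pair than Callus+AM, so counts with 1 Callus+AM library rest on an understated spread. The count of called genes moved by more than 1.5 times on leaving out most single libraries. With Callus replicate 2 alone kept it was 2, both lower, whereas with replicate 1 alone it was 252 (165 higher and 87 lower), of which 57 were among the 209. With Callus+AM replicate 2 as the remaining Callus+AM library, 1822 genes were called, 1518 of them higher. With Callus+AM replicate 1 as the remaining one, 615 were called, 269 higher and 346 lower. Libraries outside the comparison enter the shared spread and the scaling, and leaving them out moved the count too. It was 798 and 834 without Ag replicate 1 or 2, 387 and 383 without those of AgBi, 81 and 82 without those of AgTi, and 76 and 92 without those of AMT+Ab. The count was 108 and 107 without AMT+Hb replicate 1 or 2, 79 without either PB library, and 153 and 151 without either Seedling library. When all libraries were thinned to 26609812 counts, 174 genes were called, 167 of them among the 209.

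Each called gene was then followed in its libraries, with CPM plus a pseudocount of 0.5 on the log2 scale. In all 107 higher genes both Callus+AM libraries lay above both Callus libraries, and in all 102 lower genes both lay below. An order of this kind was common among all genes tested, with 24.2% above and 23.3% below, so it says little by itself. A gap of more than 2-fold between the nearest libraries was found in 89 of the higher and 90 of the lower genes, beside 1.89% and 1.26% of all genes tested. The genes were called on these same libraries, so this describes them and is no further support. Of the 107 higher genes, 97 were more than 2-fold above the Callus mean in both Callus+AM libraries, 5 in replicate 1 alone and 5 in replicate 2 alone. Replicate 2 was the farther one from Callus in 68 of them and replicate 1 in 39. The corresponding numbers for the 102 lower genes were 93, 3 and 4, with 2 genes past 2-fold in neither library. The median difference of the higher genes was 1.71 in replicate 1 and 1.91 in replicate 2, and that of the lower genes was -1.75 and -1.83. Both libraries thus stood about equally far from Callus over the called genes, although the call itself favours genes on which replicates are close. Among the 107 higher genes, 15 had under 10 counts in the 2 Callus libraries together.

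**Figure D1:**
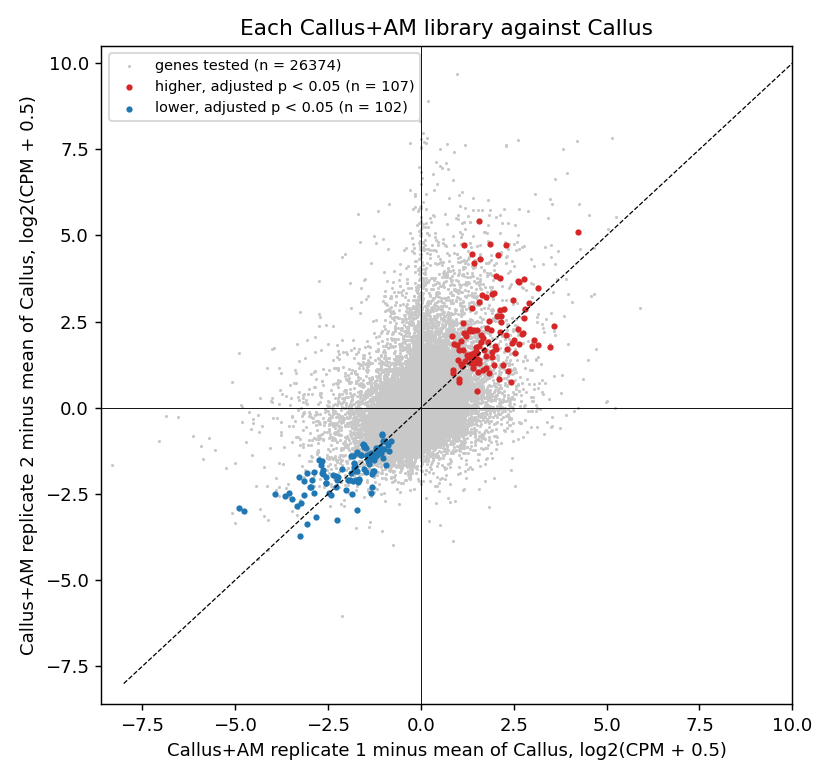
Difference of each Callus+AM library from the mean of the Callus libraries on log2(CPM + 0.5), replicate 1 on the horizontal and replicate 2 on the vertical axis, for the 26374 genes tested; the 107 called higher and the 102 called lower are coloured. The called genes lie in the upper right and the lower left, while a broad cloud of uncalled genes rises along the vertical axis, where replicate 2 alone is high.

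LOC_Os03g02190, on chromosome 3, was among the higher genes with the widest gap between libraries. It was nearly silent in Callus, with 0.0483 CPM in replicate 1 and 0 in replicate 2, from 2 counts in all. In Callus+AM it reached 9.36 and 17.5 CPM, from 984 counts. Both Callus+AM libraries were therefore far above both Callus libraries, at 13.4 ± 5.74 CPM against 0.0242 ± 0.0342 (mean ± SD, n = 2 each). The ratio of the Callus+AM mean to the level from the pooled counts of both Callus libraries was 597-fold, with a 95% exact Poisson interval of the Callus counts from 165 to 4927 that covers counting error only. Leaving out a Callus+AM library gave 777-fold (replicate 2 kept) or 416-fold (replicate 1 kept), and with Callus replicate 1 kept alone it was 278-fold. With Callus replicate 2 kept alone the group had 0 counts and the ratio was at least 213-fold, taking 3 counts in the remaining library. The fitted log2 fold change equalled 8.99 (SE 1.83, edgeR adjusted p = 0.0464), and the call ended without either Callus library, at edgeR adjusted p = 0.220 and 0.195. The call also ended without either library of Seedling, AgTi, AMT+Ab, AMT+Hb or PB, at edgeR adjusted p from 0.0578 to 0.0732. The gene was also low in Seedling, at 0.174 and 0.0264 CPM, and ranged from 0.801 to 48.9 CPM, with a median of 6.64, in the 12 libraries of the 6 other treated groups. The lowest of those libraries was still above every Callus and Seedling library.

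LOC_Os12g02370, on chromosome 12, had 3.36 and 2.72 CPM in Callus and 31.0 and 38.6 CPM in Callus+AM. The replicates were close within each group and the groups did not overlap. The means of 34.8 ± 5.41 and 3.04 ± 0.454 CPM (SD, n = 2 each) differed 11.5-fold, with a log2 fold change of 3.52 (SE 0.702, edgeR adjusted p = 0.0432). In the deposited FPKM table, which divides by gene length, the means were 31.4 and 2.68. The 12 libraries of the 6 other treated groups lay between 10.05 and 51.6 CPM, with a median of 29.0, and the Seedling libraries were at 8.47 and 21.6, so Callus was the lowest group. The call ended without Callus replicate 1 or 2 (edgeR adjusted p = 0.220 and 0.178), and without either library of AgTi, AMT+Ab, AMT+Hb or PB (edgeR adjusted p from 0.0614 to 0.0698).

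LOC_Os04g52260, on chromosome 4, was an abundant leaf transcript in Callus, at 1048 and 810.5 CPM, and had 96.8 and 70.1 CPM in Callus+AM. Both Callus+AM libraries were thus far below both Callus libraries, at 83.4 ± 18.9 CPM against 929 ± 168 (SD, n = 2 each). The gene was 11.1-fold higher in Callus, and the log2 fold change of Callus+AM against Callus was -3.48 (SE 0.452, edgeR adjusted p = 0.0117). It was also low in Ag (104 and 70.3 CPM), AgTi (108 and 133) and AMT+Hb (89.0 and 175). It was higher in AgBi (441 and 698), AMT+Ab (611 and 527) and PB (326 and 209), and highest in Seedling (1701 and 942). The call ended without Callus replicate 1 (edgeR adjusted p = 0.0667) and held without any other single library.

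LOC_Os05g38270, on chromosome 5, had 56.5 and 71.1 CPM in Callus and 1.87 and 7.48 CPM in Callus+AM. The Callus+AM libraries differed from each other but both were below Callus, at 4.68 ± 3.97 against 63.8 ± 10.4 CPM (SD, n = 2 each). The log2 fold change equalled -3.78 (SE 0.501, edgeR adjusted p = 0.0117). With replicate 2 as the remaining Callus+AM library it was -3.11 and with replicate 1 it was -5.08, and the call ended without Callus replicate 1 (edgeR adjusted p = 0.0534). The remaining groups fell on both sides of Callus. The Ag, AgTi and AMT+Hb libraries were at 1.46 to 3.99 CPM, the AMT+Ab libraries at 59.4 and 40.9, and those of AgBi, PB and Seedling at 137 to 314.

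**Figure D2:**
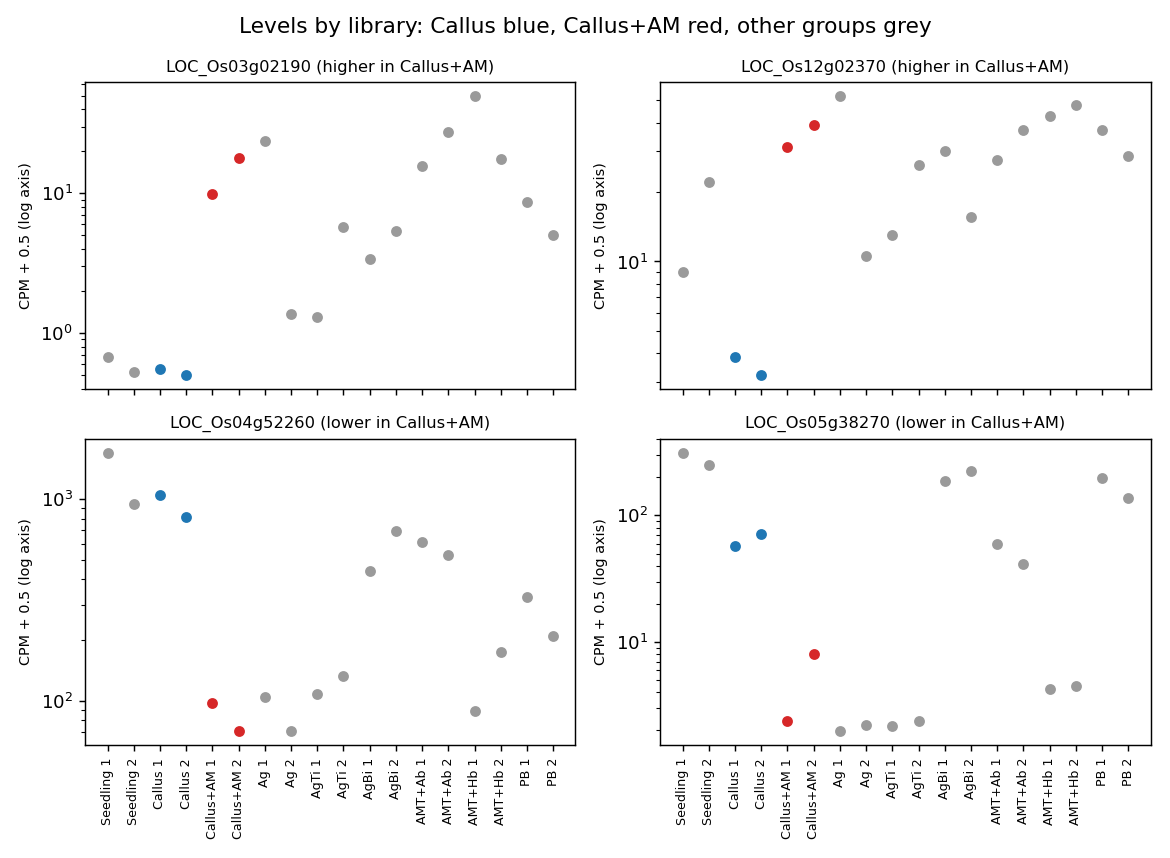
Level of the 4 genes named for Callus+AM against Callus in each of the 18 libraries, as TMM-scaled CPM + 0.5 on a log axis, with 1 point per library. The Callus+AM points lie apart from the Callus points in each panel, and Ag, AgTi and AMT+Hb lie near Callus+AM for both lower genes.

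The levels of the called genes in the groups outside the comparison were ordered differently for the higher and the lower genes. The 107 higher genes had a median level of 1.81 and 1.47 CPM in the Callus libraries and of 7.69 and 13.98 CPM in the Callus+AM libraries, which is what they were chosen for. In the 12 libraries of the 6 other treated groups their median lay between 4.90 CPM in AgBi and 9.99 CPM in AgTi, above both Callus libraries in every case. In Seedling it was 2.76 and 2.09 CPM, nearer to Callus. The 102 lower genes had medians of 57.55 and 65.21 CPM in Callus and of 15.81 and 15.74 CPM in Callus+AM. Here the other treated groups split. In Ag (13.93 and 16.70 CPM), AgTi (14.20 and 15.17) and AMT+Hb (16.76 and 17.91) the median was close to that of Callus+AM. In AgBi (63.69 and 55.05 CPM), AMT+Ab (47.46 and 40.96) and PB (40.19 and 38.28) it lay nearer to Callus, and in Seedling it was 129.33 and 127.75 CPM. These medians are a description and were not tested, and all groups are read beside the same Callus libraries.

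**Figure D3:**
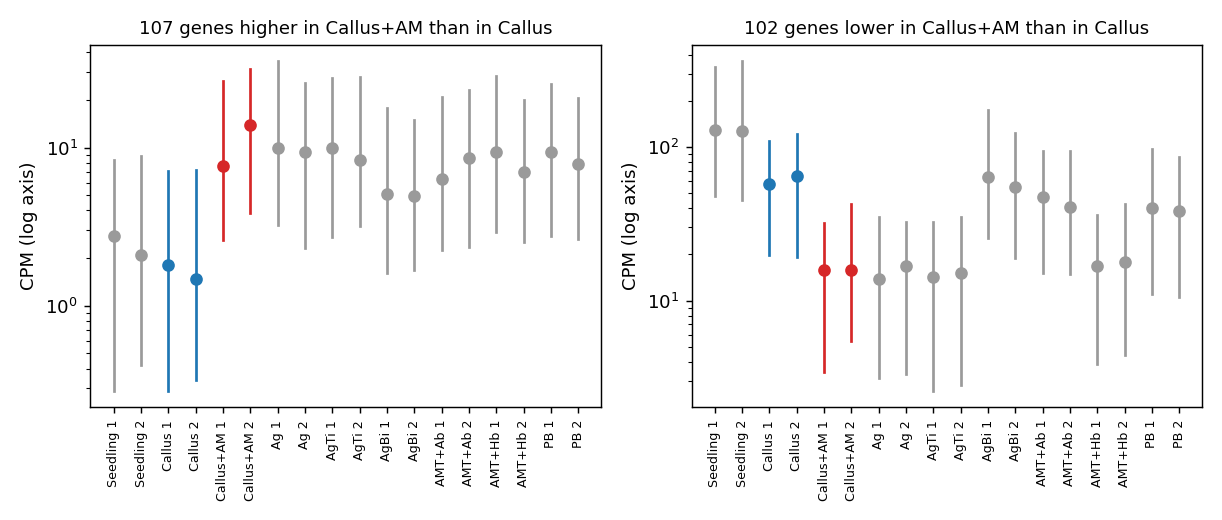
Median level in TMM-scaled CPM, with the range from the 25th to the 75th percentile over genes, of the 107 genes called higher and the 102 called lower in Callus+AM, in each of the 18 libraries. The lower genes are near 16 CPM in Callus+AM, Ag, AgTi and AMT+Hb and above 38 CPM in the other groups.

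The Callus+AM libraries differed from each other more than those of any other group. Of the 26374 genes, 1719 (6.52%) were more than 4-fold apart between the 2 Callus+AM libraries on CPM + 0.5, against 328 (1.24%) between the 2 Callus libraries. In the other 7 groups the share was 2.74% in Ag, 2.32% in AgBi, 1.6% in PB, 0.91% in AMT+Hb, 0.758% in Seedling, 0.402% in AgTi and 0.277% in AMT+Ab. The difference was lopsided, with 1407 genes higher in replicate 2 and 312 higher in replicate 1. The median absolute log2 difference was 0.44 between the Callus+AM libraries and 0.20 between the Callus libraries, and the 95th percentiles were 2.26 and 0.97. The medians of Ag (0.41) and AgBi (0.42) were close to that of Callus+AM, with a 95th percentile of 1.56 in each. Callus+AM thus stood out by its widely differing genes more than by its typical gene. After thinning to equal depth the count was 1733. With a pseudocount of 0.1 CPM, which admits more genes of low level, it was 2713 (567 higher in replicate 1 and 2146 in replicate 2). There is 1 library against 1 here, so no test was made.

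**Figure D4:**
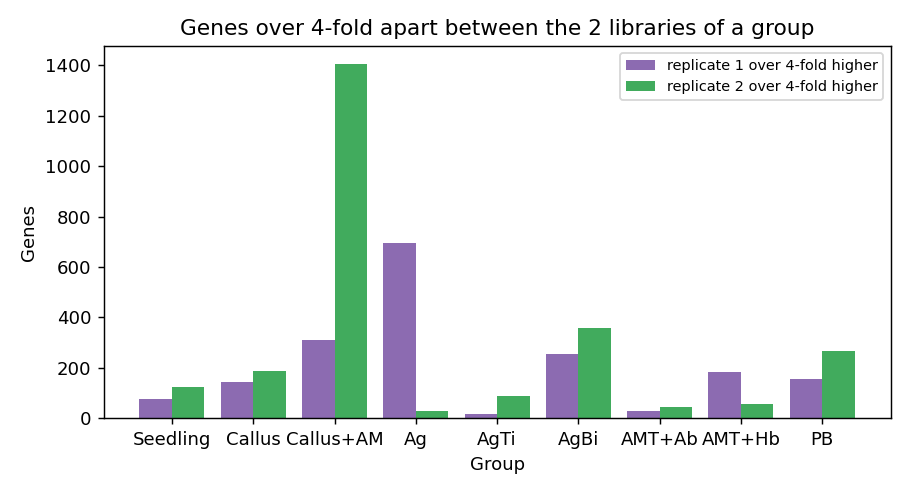
Number of genes more than 4-fold apart between replicates 1 and 2 of each of the 9 groups on TMM-scaled CPM + 0.5, of 26374 genes tested, split by which replicate is higher. Callus+AM has the longest bar, with 1407 genes higher in replicate 2 and 312 higher in replicate 1.

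Taken 1 library at a time, replicate 1 was more than 4-fold above both Callus libraries for 267 genes (1.01%) and more than 4-fold below both for 354 (1.34%). Replicate 2 was above both for 1157 genes (4.39%) and below both for 84 (0.318%). Both Callus+AM libraries together passed this limit for 83 genes above (0.315%) and 38 below (0.144%). At a limit of 2-fold, 499 genes were above and 333 below in both, while 73 were below Callus in replicate 1 and above it in replicate 2, and 27 showed the opposite. The direction in which a Callus+AM library departed from Callus therefore differed between the replicates, with more genes above Callus in replicate 2 and slightly more below it in replicate 1. Neither direction was particular to Callus+AM. At 4-fold, Ag replicate 2 (292 above and 337 below) and AgTi replicate 1 (379 and 408) also had more genes below both Callus libraries. All other treated libraries had more above, from AgTi replicate 2 (302 and 258) to PB replicate 1 (1516 and 297).

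Among the 312 genes higher in replicate 1, the median level was 18.7 CPM in replicate 1, 2.54 in replicate 2, and 4.85 and 5.37 in the Callus libraries. Replicate 1 alone was more than 2-fold from the Callus mean, always above it, for 191 of them. Replicate 2 alone was, always below it, for 53, and the replicates lay on opposite sides of Callus for 61. Of the 312 genes, 0 were among the 209 called by edgeR (0.792% of all genes tested), and a wide gap between replicates makes a call less likely. The libraries of other groups could be placed by asking which Callus+AM replicate each was nearer to. AgTi was nearer to replicate 1 for 90.4% and 87.5% of these genes and Ag for 66.0% and 90.4%, whereas the Callus libraries were nearer to it for 24.7% and 32.1% and the AMT+Hb libraries for 31.7% and 26.6%. The share was 35.9% and 30.4% for AgBi, 33.7% and 47.4% for PB, 43.6% for both AMT+Ab libraries, and 35.3% and 49.4% for Seedling. AgTi and Ag were thus nearer to replicate 1 for most of these genes, and all other groups were nearer to replicate 2. The genes were chosen as high in replicate 1, so any library with low levels falls nearer to replicate 2.

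LOC_Os01g70490, on chromosome 1, had 504 CPM in Callus+AM replicate 1 and 17.5 in replicate 2, with 12.1 and 19.99 CPM in Callus. The ratio between the Callus+AM libraries was 28.0-fold on CPM + 0.5, and replicate 2 was within the Callus values. In the other groups only the AgTi libraries (357 and 120 CPM) and Ag replicate 2 (173) exceeded 100 CPM. LOC_Os05g24780, on chromosome 5, had 45.2 CPM in replicate 1 and 1.14 in replicate 2, a ratio of 27.9-fold, with 1.01 and 0.842 CPM in Callus. Its highest levels elsewhere were in Ag (70.2 and 42.6 CPM) and AgTi (43.2 and 35.7). Replicate 2 of Callus+AM was again next to Callus and replicate 1 next to AgTi.

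Among the 1407 genes higher in replicate 2, the median level was 1.12 CPM in replicate 1 and 15.0 in replicate 2, beside 1.38 and 0.948 in the Callus libraries. Replicate 2 alone was more than 2-fold from the Callus mean, always above it, for 842 of them. Replicate 1 alone was, always below it, for 250, the replicates lay on opposite sides for 140, and both lay on the same side for 175, of which 158 were above. Of the 1407 genes, 8 (0.569%) were called by edgeR in Callus+AM against Callus, close to the 0.792% of all genes tested. The Ag libraries were nearer to replicate 1 for 64.3% and 97.5% of these genes, AgTi for 93.7% and 92.3%, Seedling for 84.1% and 86.5%, and Callus for 73.1% and 77.7%. PB was nearer to it for 28.3% and 46.4%, AMT+Hb for 37.2% and 62.3%, AgBi for 44.8% and 53.7%, and AMT+Ab for 58.6% and 49.2%. Both libraries of AgTi, Ag, Seedling and Callus were thus nearer to replicate 1 for most of these genes. The genes were chosen as high in replicate 2, so any library with low levels falls nearer to replicate 1. PB was the group of which both libraries were nearer to replicate 2 for most genes.

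LOC_Os02g40260, on chromosome 2, had 0.0970 CPM in Callus+AM replicate 1 and 252 in replicate 2, with 0.0242 and 0.0211 CPM in Callus. In the 12 libraries of the 6 other treated groups it did not exceed 18.3 CPM. LOC_Os03g45619, on chromosome 3, had 0.558 CPM in replicate 1 and 437 in replicate 2, with 0.0483 and 0.0211 CPM in Callus. It was detected at varied levels elsewhere, among them 187 and 39.5 CPM in AgBi and 133 and 22.8 CPM in AMT+Hb. The ratios between the Callus+AM libraries were 423-fold and 413-fold on CPM + 0.5, and they depend on the pseudocount, since the lower library is near 0. As log2 ratios of replicate 1 to replicate 2 they were -8.72 and -8.69, and -10.32 and -9.37 with a pseudocount of 0.1 CPM. Both genes were close to silent in Callus and in Callus+AM replicate 1.

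A stricter set was made of genes that were on, at 5 CPM or more, in one library and off, at under 0.2 CPM, in the other. In Callus+AM, 146 genes were on in replicate 2 and off in replicate 1, and 6 were the other way round. The next highest counts were 57 genes on in Callus replicate 2 alone and 45 on in Ag replicate 1 alone. Of the 146 genes, 52 reached 5 CPM in no other library of the series and 94 did so in at least 1, with 16 in 4 or more. PB accounted for most of these, with 66 genes at 5 CPM or more in replicate 1 and 44 in replicate 2. AgBi had 27 and 13, AMT+Hb 27 and 2, AMT+Ab 10 and 9, Ag 6 and 2, Callus 6 and 5, Seedling 3 and 3, and AgTi 0 and 2. In Callus 34 of the 146 had 0 counts, and 0 of the 146 were called in Callus+AM against Callus (0.792% of all genes tested), as the choice of genes with unlike replicates makes likely. The genes on in replicate 2 of Callus+AM alone were thus in part on in PB and, in replicate 1, in AgBi and AMT+Hb. Of all 18 libraries, those of PB also had the most genes at 1 CPM or more (20812 and 21284). Whether the PB counts are particular to these 146 genes was not tested.

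**Figure D5:**
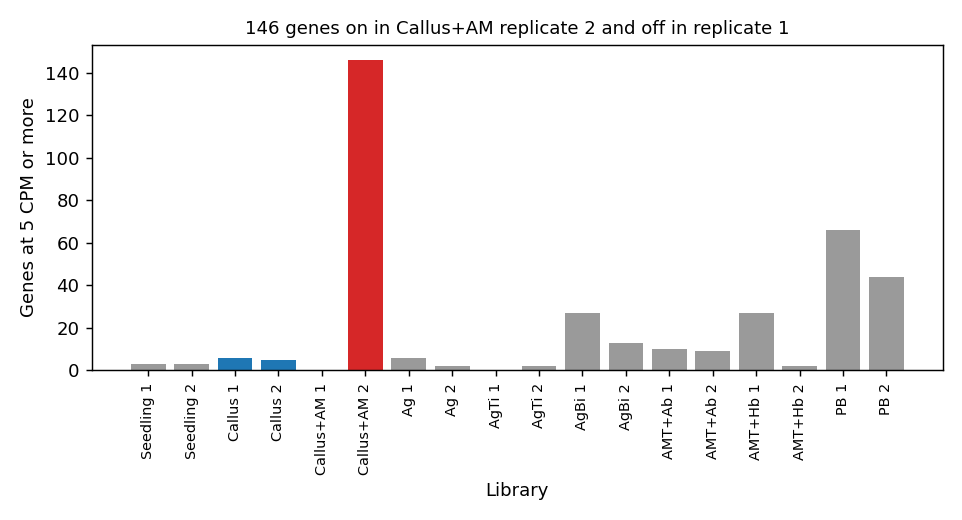
Number of the 146 genes that were at 5 CPM or more in Callus+AM replicate 2 and under 0.2 CPM in Callus+AM replicate 1 which reached 5 CPM in each of the other libraries. PB replicate 1, with 66 genes, and PB replicate 2, with 44, have the longest bars.

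The genes were spread over all 12 chromosomes. The share of tested genes called in Callus+AM against Callus ran from 0.423% on chromosome 10 to 0.998% on chromosome 3, and the median log2 fold change of a chromosome lay between 0.02 and 0.10. The genes more than 4-fold higher in replicate 2 made up 4.01% of the genes of chromosome 2 and 5.98% of those of chromosome 11. The medians of the chromosomes were thus close to the 0.06 of all genes. Among the 107 called higher genes, 4 had another called higher gene as the next tested identifier on the chromosome (3.74%, against 0.811% of all genes tested). Among the genes higher in replicate 2 this held for 292 of 1407 (20.8%, against 10.3%), with a longest run of 5 on chromosome 5, and among those higher in replicate 1 for 44 of 312 (14.1%, against 2.34%). Neighbouring copies of a gene family can share reads, and the tables do not show how such reads were divided.

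LOC_Os01g19850 was the only identifier with a name, OsCCC2 (KCC2), a member of the cation-chloride cotransporter family, whose products move chloride together with cations across membranes. It had 0.387 and 0.442 CPM in Callus and 1.09 and 0.380 CPM in Callus+AM. These levels rest on 16 and 21 counts in Callus and on 45 and 13 in Callus+AM. Replicate 1 of Callus+AM was above both Callus libraries, and replicate 2 was just below both by a margin negligible at such counts. The log2 fold change of 0.83 (SE 0.663, edgeR adjusted p = 0.536) did not pass the test. The other 12 treated libraries ranged from 0.267 to 2.80 CPM with a median of 0.752.

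Callus+AM was next compared with the equal-weight mean of the 6 other treated groups, a contrast that equals the difference between the effect of Callus+AM against Callus and the mean effect of those groups against Callus, and that does not use the Callus levels. It called 86 genes (0.326%), 59 higher (0.224%) and 27 lower (0.102%) in Callus+AM, with 4338 at an unadjusted p below 0.05. Both Callus+AM libraries lay beyond the means of all 6 groups for 7 of the 59 higher and 13 of the 27 lower genes, beside 3.1% above and 2.9% below over all genes tested. DESeq2 called 948, of which 412 were higher and 536 lower, and limma on log2(FPKM + 1) called 136, of which 33 were higher and 103 lower, so the balance of directions depended on the tool. The count also turned on single libraries. It was 1103 without Callus+AM replicate 1 and 162 without replicate 2. It was 435 without AgBi replicate 1, 97 without AgBi replicate 2, 88 without Ag replicate 2 and 20 to 45 without any 1 of the other 13 libraries. The Callus libraries are no term of this contrast, and the count was 36 without either of them.

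LOC_Os08g10320, on chromosome 8, had 58.9 and 106 CPM in Callus+AM and between 12.7 and 49.1, with a median of 29.4, in the 12 libraries of the 6 other treated groups. The Callus+AM libraries were above all 12, and the log2 fold change equalled 1.51 (SE 0.249, edgeR adjusted p = 0.0337). In Callus it had 95.8 and 98.8 CPM, between the Callus+AM values, and the log2 fold change of Callus+AM against Callus was -0.24 (edgeR adjusted p = 0.782), and 0.11 without Callus+AM replicate 1. LOC_Os06g45980, on chromosome 6, had 53.1 and 55.7 CPM in Callus+AM, 51.4 and 50.6 in Callus, and 6.10 to 41.3, with a median of 24.8, in the 12 others. Its log2 fold change against the 6 groups was 1.39 (SE 0.252, edgeR adjusted p = 0.0431). For both genes Callus+AM was thus above the remaining treated groups. Both of its libraries were beside Callus for LOC_Os06g45980, whereas for LOC_Os08g10320 replicate 2 was near Callus and replicate 1 below it.

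The lower genes named were LOC_Os07g42220 and LOC_Os07g42250, both on chromosome 7 and with nearby identifiers. LOC_Os07g42220 had 15.9 and 13.0 CPM in Callus+AM, 25.8 and 20.6 in Callus, and 20.6 to 90.4, with a median of 29.6, in the 12 libraries of the other treated groups, and its log2 fold change against the 6 groups was -1.25 (SE 0.230, edgeR adjusted p = 0.0450). LOC_Os07g42250 had 18.04 and 9.50 CPM in Callus+AM, 22.0 and 29.9 in Callus, and 19.1 to 90.2, with a median of 28.6, in the 12 others, with a log2 fold change of -1.38 (SE 0.250, edgeR adjusted p = 0.0428). Callus+AM was the lowest group for both. The calls of the 4 genes were close to the threshold. Without Callus+AM replicate 2 each lost its call (edgeR adjusted p from 0.0949 to 0.147), and so did each without Ag replicate 1, AgTi replicate 1, AMT+Ab replicate 2, AMT+Hb replicate 1, either PB library or either Callus library. All but LOC_Os08g10320 also lost it without either Seedling library, AgTi replicate 2, AMT+Ab replicate 1 or AMT+Hb replicate 2, and both lower genes without Ag replicate 2 or AgBi replicate 2. In these fits the edgeR adjusted p ran from 0.0507 to 0.0934.

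Callus itself was compared with the 7 treated groups together, Callus+AM among them. In the contrast of Callus with their equal-weight mean, edgeR called 3819 genes (14.5%), 2354 of them higher (8.93%) and 1465 lower (5.55%) in Callus. Only Callus was set against all 7 others in this way. This count therefore does not show whether Callus stands farther apart than another group would. The count was 437 with Callus replicate 2 alone, 876 with Callus replicate 1 alone, and 3438 after thinning all libraries to equal depth. The direction split depended on the tool, with 2636 higher and 3369 lower by DESeq2 and 1482 higher and 1573 lower by limma on log2(FPKM + 1). This contrast and that of Callus+AM with Callus share the Callus libraries, so the values of both are given for each gene named.

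LOC_Os03g01200, on chromosome 3, had 261 and 222 CPM in Callus, 23.7 and 31.7 in Callus+AM, and 5.58 to 94.4, with a median of 23.2, in the 14 libraries of the 7 treated groups. Callus was above every one of them, with a log2 fold change of 3.41 (SE 0.370, edgeR adjusted p = 0.000386). That of Callus+AM against Callus was -3.13 and missed the threshold at an edgeR adjusted p = 0.0531. LOC_Os12g32470, on chromosome 12, had 13.8 and 18.6 CPM in Callus and 4.53 and 2.89 in Callus+AM, with 0.681 to 5.50 and a median of 2.32 in the 14 treated libraries, and its log2 fold change of Callus against the 7 groups was 2.77 (SE 0.314, edgeR adjusted p = 0.000422). That of Callus+AM against Callus was -2.12 (edgeR adjusted p = 0.0692). Both genes were higher in the Callus libraries than in every other library, those of Seedling included (43.0 and 37.5 CPM for the first and 5.22 and 3.01 CPM for the second).

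LOC_Os11g42500, on chromosome 11, had 2.51 and 0.611 CPM in Callus, a similar 2.23 and 1.74 CPM in Seedling, and 63.7 and 418 CPM in Callus+AM. Replicate 2 of Callus+AM was several times above replicate 1, and both were above Callus. The 12 libraries of the 6 other treated groups ranged from 2.72 CPM in AgTi replicate 1 and 2.81 in Ag replicate 2 to 871 in AMT+Hb replicate 1. The log2 fold change of Callus against the 7 groups was -7.19 (SE 2.13, edgeR adjusted p = 0.0417). With Callus replicate 2 kept alone it was -8.53 and with Callus replicate 1 kept alone -6.49, and the call ended in both (edgeR adjusted p = 0.187 and 0.260). It was -6.23 without Ag replicate 1 and -6.58 without AgTi replicate 2, with the call kept. The call also ended without either library of Seedling, AMT+Ab or AMT+Hb, AgBi replicate 2 or PB replicate 1 (edgeR adjusted p from 0.0520 to 0.0603). LOC_Os09g13650, on chromosome 9, had 0 counts in both Callus and both Seedling libraries and 18.6 and 22.6 CPM in Callus+AM. It was also nearly silent in Ag replicate 2 (0.0268 CPM) and AgTi replicate 1 (0.0534), and had 9.06 to 49.4 CPM in the remaining treated libraries. The mean of the 7 treated groups was at least 489-fold higher than Callus, taking 3 counts over the group (edgeR adjusted p = 0.0430). With Callus replicate 2 alone the bound was 261-fold and with Callus replicate 1 alone 228-fold, and the call ended in both (edgeR adjusted p = 0.206 and 0.221). It also ended without Ag replicate 1 or either library of AgBi, AMT+Ab, AMT+Hb or PB (edgeR adjusted p from 0.0521 to 0.0860). In Callus+AM against Callus neither gene passed. The fitted log2 fold change of LOC_Os11g42500 was 7.27 (edgeR adjusted p = 0.0981). With 1 of the 4 libraries left out it was 8.05 (without Callus+AM replicate 1), 5.37 (Callus+AM replicate 2), 8.62 (Callus replicate 1) and 6.57 (Callus replicate 2), and it did not pass in any of these fits. LOC_Os09g13650, with 0 counts in Callus, had an edgeR adjusted p = 0.0926.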

How the data were processed

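For 18 RNA-seq libraries of rice leaf the authors deposited estimated counts per gene, together with FPKM values; the bisulfite samples were not used here. Per the submitters' processing notes, TopHat, Cuffnorm and Cuffdiff were among the tools, with no version. No source used here gives the aligner settings, the genome build or the use of strand, so overlapping and antisense genes cannot be told apart. Non-whole values made up 0.707% of the deposited counts, which were rounded.

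edgeR 4.0.16 in R 4.3.3 was run with filterByExpr by group (26374 of 55986 genes kept), TMM scaling and a robust quasi-likelihood fit with 1 coefficient for each of 9 groups (9 residual degrees of freedom, common dispersion 0.146). Genes were called at a Benjamini-Hochberg adjusted p below 0.05 within each of 3 comparisons, and standard errors were derived from the F statistics. Totals ran from 26609812 to 52643975 counts per library, so 3 counts were 0.0619 to 0.0930 CPM before scaling in the 4 libraries compared. Within each group, the 2 replicates differed by more than counting noise, so none was taken as a duplicate; pairs across groups were not checked in this way.

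The named genes were called, had a mean log2 CPM of at least 1 and had libraries of the first group that did not overlap with those of the group compared, or with the group means where several groups were compared. Those with the widest such gaps were named, the first 2 higher and 2 lower. Between the Callus+AM libraries they were the 2 with the largest ratio each way among genes with Callus libraries within 2-fold. The RefSeq gene table of assembly ASM3414082v1 paired 1 identifier with a name, and gene lists by name could therefore not be used. The members, lists and rules were chosen with earlier results of these data known. Replicate numbers were taken as names, since no label ties them to a batch or day.

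Alternatives were relative log expression factors, no filter, DESeq2 1.42.0, limma 3.58.1 on log2(FPKM + 1) and log2(FPKM + 0.1) (20907 genes, mean FPKM 1 or more), a fit of only the groups compared, a replicate block, a test against 1.5-fold (glmTreat), thinning to equal depth and leaving out each library. A lone remaining library was assumed to vary like the other groups, although the Callus+AM libraries differed from each other more than those of any other group. The edgeR procedure was tested on simulated data.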

Additional observations from a re-analysis of the deposited data

Results flagged for a closer look

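The effect of Callus+AM against Callus differed from the mean effect of the 6 other treated groups for 86 genes (0.326% of those tested), by edgeR's test of that difference (adjusted p below 0.05). The named ones, as log2 fold changes of Callus+AM against the mean of the 6 groups, were LOC_Os08g10320 at 1.51, LOC_Os06g45980 at 1.39, LOC_Os07g42220 at -1.25 and LOC_Os07g42250 at -1.38, each with both Callus+AM libraries beyond the 12 libraries of the 6 groups. They were chosen for not overlapping with the group means, which held for 7 of the 59 higher and 13 of the 27 lower genes. Over all genes tested it held for 3.1% above and 2.9% below. Each of the named genes lost its call with only the groups compared, with the replicate block and in the test against 1.5-fold.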

How the results depend on the processing

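For Callus+AM against Callus, 209 genes became 387 with no filter on low counts, 2746 with DESeq2, 0 with only the groups compared, 25 in the test against 1.5-fold and from 2 to 1822 on leaving out 1 library; other factors, limma, thinning and the crossed numbers gave 152 to 278 (limma on log2(FPKM + 1) 93 higher and 149 lower). With the replicate number as a block it called 90 (38 higher and 52 lower). Against the 6 other treated groups, 86 became 183 with no filter, 948 with DESeq2, 136 with limma on log2(FPKM + 1), 21 with only the groups compared, 36 with the replicate block, 15 in the test against 1.5-fold and from 20 to 1103 without 1 library; limma on log2(FPKM + 0.1) gave 27 higher and 99 lower. For Callus against the 7 treated groups, 3819 became 6005 with DESeq2, 861 in the test against 1.5-fold, 2949 with the replicate block and from 437 to 5271 without 1 library; limma on log2(FPKM + 0.1) gave 1465 higher and 1870 lower. Genes over 4-fold apart between the Callus+AM libraries were 1719, and 2713 with a pseudocount of 0.1. The cause was not tested.

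The replicate differences of Callus and Callus+AM had r = -0.12 across genes, so a block with the Callus+AM numbers exchanged was added after seeing the data; it called 152 genes (81 higher and 71 lower). Of 328 alternative values of the 12 tested named genes, 194 kept the call, 134 lost it and 0 reversed; LOC_Os04g52260 and LOC_Os05g38270 kept it in 26 of 28 each, LOC_Os12g02370 in 13 and LOC_Os03g02190 in 9. With a block, the calls of the last 2 and of 6 of the 8 other named genes were lost. Thinning lowered depth only, so what more depth would show was not tested.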
